A study of Mus musculus with 6 samples.

Results

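Enteroendocrine cells are single secretory cells scattered through the gut epithelium. They store peptide hormones or serotonin in dense-core granules and release them in response to food, bacterial products and stretch. Granins are acidic proteins of these granules and serve as general markers of the cells. In the colon the main kinds are L cells, which make glucagon-like peptides, peptide YY and insulin-like peptide 5, enterochromaffin cells, which make serotonin, and D cells, which make somatostatin. The genes described here are 10 enteroendocrine genes of 33573 in the deposited table, chosen by symbol: the granins Chga and Chgb, the peptide hormones Gcg, Pyy, Insl5, Sst, Cck and Nts, the serotonin enzyme Tph1 and the transcription factor Neurod1. All 10 passed the count filter, as did 18520 genes in all.

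RNA-seq had been performed on 3 tumor and 3 colon libraries of C57BL/6 mice, numbered 2, 4 and 20 in both tissues. Both tissues came from animals bearing colorectal cancer, and the study's methods describe male mice injected once with azoxymethane, a carcinogen, and then given repeated cycles of dextran sodium sulfate, an agent that damages the epithelium of the colon, in drinking water (AOM/DSS). The colon samples are thus not from untreated mice, and the exact site of each sample along the colon is not given in the sources used here. Total counts per library ran from 16995481 to 20789620. All fold changes are tumor over colon, and adjusted p-values, unless another method is named, are those of edgeR (quasi-likelihood), Benjamini-Hochberg adjusted over all tested genes.

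The labels call the tumor libraries tumor cells, but markers of other tissue were present in both groups. The summed level of 14 pan-epithelial genes was 12144 to 13709 CPM (counts scaled to library size by TMM) in tumor and 13246 to 15251 CPM in colon. Over all tested genes 16.1% were lower and 16.1% higher in tumor at an adjusted p under 0.05. The 10 smooth muscle genes summed to 620 to 1266 CPM in tumor and 9925 to 10284 CPM in colon, with 10 of 10 lower in tumor. The 14 enteric neuron genes summed to 24.7, 70.7 and 45.6 CPM in tumors 2, 4 and 20, against 164, 134 and 209 CPM in colons 2, 4 and 20, and 11 of the 13 tested were lower. Most of the sums of tumors 4 and 20 came from Ret, which did not pass. Ret had 9.09, 51.3 and 28.6 CPM in tumors 2, 4 and 20, against 10.5, 7.80 and 16.5 CPM in colons 2, 4 and 20. The 5 enteric glia genes, 5 of 5 lower and 3 of 5 without colon replicate 4, summed to 1.81 to 4.72 CPM in tumor and 22.1 to 26.8 CPM in colon. Enteric neurons also make granins and several of the peptides below, and the part of muscle and nerve in the results was not tested. In bulk tissue, fewer cells of a type and less RNA per cell cannot be told apart.

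Windows around the transcription starts, from 250 bases before to 50 bases after, were read from RefSeq (build GRCm38.p6) and had an entry for 10 of 10 genes, 13 windows in all. Shown are the windows of both granins, of 2 hormones that were among the lowest in tumor relative to colon, and of Nts, whose mean differed in the other direction. Capitals mark occurrences of 3 motifs on either strand: TGACGT, or its longer palindrome, then the sequence TATAAA, and last the sequence CAGATG. By this rule TTTATA in the Gcg window is TATAAA on the other strand. The palindrome is the full cyclic AMP response element, TATAAA marks the TATA box type of core promoter, and CAGATG is an E-box sequence.
Chga, plus strand, chr12:102554691-102554990: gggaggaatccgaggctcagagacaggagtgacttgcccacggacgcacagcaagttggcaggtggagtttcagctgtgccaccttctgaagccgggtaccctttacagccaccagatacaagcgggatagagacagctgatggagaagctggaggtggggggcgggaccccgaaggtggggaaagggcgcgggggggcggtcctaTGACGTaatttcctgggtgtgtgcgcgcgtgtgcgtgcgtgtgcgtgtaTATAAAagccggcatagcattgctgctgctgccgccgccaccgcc
Chgb, plus strand, chr2:132781392-132781691: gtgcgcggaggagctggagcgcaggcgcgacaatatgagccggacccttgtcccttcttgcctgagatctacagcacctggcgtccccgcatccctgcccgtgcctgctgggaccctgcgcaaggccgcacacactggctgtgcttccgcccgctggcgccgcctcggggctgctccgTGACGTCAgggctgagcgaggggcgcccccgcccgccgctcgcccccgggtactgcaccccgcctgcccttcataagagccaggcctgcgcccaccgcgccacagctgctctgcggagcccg
Gcg, minus strand, chr2:62483604-62483903: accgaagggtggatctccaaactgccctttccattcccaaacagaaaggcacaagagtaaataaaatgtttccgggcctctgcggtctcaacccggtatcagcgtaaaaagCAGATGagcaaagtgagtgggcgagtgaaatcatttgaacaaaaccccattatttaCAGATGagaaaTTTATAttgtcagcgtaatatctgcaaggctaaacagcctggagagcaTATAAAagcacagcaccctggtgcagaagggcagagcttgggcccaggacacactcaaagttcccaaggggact
Sst, minus strand, chr16:23890795-23891094: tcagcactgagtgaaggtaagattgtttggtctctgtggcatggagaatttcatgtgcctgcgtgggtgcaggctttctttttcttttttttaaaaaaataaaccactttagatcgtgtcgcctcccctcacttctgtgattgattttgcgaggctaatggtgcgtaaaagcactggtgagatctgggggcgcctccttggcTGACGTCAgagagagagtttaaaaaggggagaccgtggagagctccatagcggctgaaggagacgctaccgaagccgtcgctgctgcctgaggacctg
Nts, minus strand, chr10:102490369-102490668: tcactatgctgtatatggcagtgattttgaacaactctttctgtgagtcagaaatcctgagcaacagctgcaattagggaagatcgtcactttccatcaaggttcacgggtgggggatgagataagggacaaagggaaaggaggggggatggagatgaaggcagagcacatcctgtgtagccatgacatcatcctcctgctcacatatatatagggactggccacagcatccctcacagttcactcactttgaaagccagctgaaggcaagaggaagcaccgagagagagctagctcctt

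TGACGT was found on either strand in 3 of the 13 windows, those of Chga, Chgb and Sst, and in 7.51% of all 32851 RefSeq windows. Counted from the start site, its first base lay at -44 in Chga. In Chgb and Sst it was part of TGACGTCA, whose first base was at -72 in Chgb and -48 in Sst. TGACGTCA was in 2 member windows and in 1.79% of all windows. TATAAA was in 4 windows of 3 genes and in 13.6% of all windows. Its first base lay at 6, after the start site, in Chga and at -72 and -24 in Gcg. In Insl5 it lay at -88 in 1 window and at -49 in the other. CAGATG was in 3 windows, with first bases at -139 and -83 in Gcg, at -30 in Cck and at -178 in 1 of the windows of Insl5, and in 17.2% of all. The general E-box CANNTG, of which CAGATG is one form, was in 12 of 13 member windows and 72.3% of all. The printed Nts window held no match to these motifs other than CANNTG. These matches describe the letters of the windows, and factor binding was not measured.

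The comparison of tumor with colon asked how the hormone and granin transcripts differed in the tumors. In tumor, 9 of the 10 genes were lower, among them both granins, the L cell hormones, somatostatin and Tph1, and the folds ran from 4.42 for Cck to 16.3 for Sst. By the same test 16.1% of all tested genes were lower and 16.1% higher. For these 9 genes every tumor library was below every colon library, which was so for 24.2% of all tested genes, while 25.3% had every tumor library above every colon library. The median log2 fold change was -2.59 over the 10 genes and 0.01 over all tested genes, of which 5.63% had a log2 fold change of -2 or less. Lists of other cell types had medians of -2.87 for colonocytes, -2.08 for goblet cells, -0.62 for tuft cells and -0.16 for pan-epithelial genes. Those of smooth muscle, enteric neurons and enteric glia were -3.55, -3.22 and -3.72, and that of mast cells was 4.32. None of the 10 passed as higher by edgeR, by limma-voom or by limma on log2 FPKM, while 1, Nts, was higher at an unadjusted p under 0.05 and by DESeq2. Over all genes edgeR called 2981 higher and 2987 lower, and with libraries scaled to the pan-epithelial genes 3926 higher and 2083 lower. That scaling moved the median log2 fold change of all genes to 0.18, and 8 of the 10 genes were then lower and 1, Nts, higher. Limma on log2(FPKM + 1) gave 3860 higher and 2350 lower genes.

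**Figure D1:**
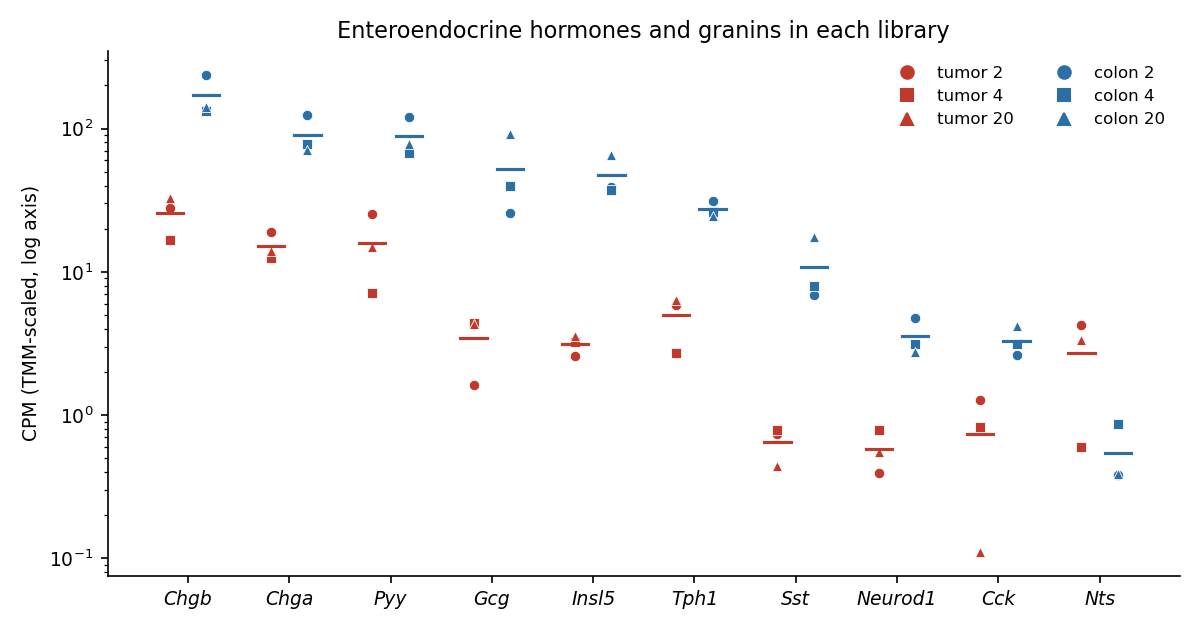
CPM (TMM-scaled, log axis) of the 10 genes in each library, tumor in red and colon in blue, with a horizontal line at the mean of 3 libraries. Tumor libraries lie below every colon library for 9 genes, and for Nts tumor 4 lies between the colon libraries.

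Chga, chromogranin A, the granin used most widely as an enteroendocrine marker (ENSMUSG00000021194, chromosome 12, 102521228 to 102531287, GRCm39), had 19.1, 12.6 and 13.9 CPM in tumors 2, 4 and 20, against 124, 78.0 and 70.5 CPM in colons 2, 4 and 20. The groups did not overlap, and colon 2 was the highest library. The mean was 15.2 ± 3.45 CPM in tumor, against 90.7 ± 28.8 CPM in colon (SD, n = 3 each), a 5.97-fold lower level (log2 fold change -2.58 ± 0.27 SE, edgeR adjusted p = 0.000868). Chgb, chromogranin B, which is likewise packed into granules (ENSMUSG00000027350, chromosome 2, 132623198 to 132636999, GRCm39), had 27.7, 16.8 and 32.8 CPM in tumor and 238, 133 and 142 CPM in colon. Its tumor libraries were also below all 3 colon libraries. The fold was 6.64 lower (log2 -2.73 ± 0.32 SE, edgeR adjusted p = 0.00144).

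The 3 L cell hormones were lower in tumor. Gcg, the proglucagon gene from which L cells make glucagon-like peptides (ENSMUSG00000000394, chromosome 2, 62304874 to 62313994, GRCm39), had 33, 96 and 78 counts in tumors 2, 4 and 20, against 471, 648 and 1677 counts in colons 2, 4 and 20. In CPM this was 1.61, 4.40 and 4.32 in tumor and 25.7, 39.8 and 92.1 in colon. Both groups were uneven, with tumor 2 the lowest and colon 20 well above the other two. Gcg was 15.2-fold lower (log2 -3.93 ± 0.59 SE, edgeR adjusted p = 0.00347), and its log2 fold change was -3.25 without colon replicate 20, the call being kept. Pyy, peptide YY, which slows gut transit and reduces appetite (ENSMUSG00000017311, chromosome 11, 101997502 to 101998658, GRCm39), had 25.5, 7.15 and 15.0 CPM in tumor and 120.0, 67.7 and 78.6 CPM in colon. Here the libraries numbered 2 were highest in both tissues and those numbered 4 lowest. The level was 5.60-fold lower (log2 -2.48 ± 0.45 SE, edgeR adjusted p = 0.00685). Insl5, insulin-like peptide 5, an orexigenic hormone of colonic L cells (ENSMUSG00000066090, chromosome 4, 102875069 to 102884039, GRCm39), had 2.59, 3.26 and 3.54 CPM in tumor and 39.1, 37.3 and 65.8 CPM in colon. The 3 tumor libraries lay close together, and the fold was 15.1 lower (log2 -3.92 ± 0.28 SE, edgeR adjusted p = 0.000291).

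Sst, somatostatin, the D cell peptide that restrains other endocrine cells (ENSMUSG00000004366, chromosome 16, 23708323 to 23709708, GRCm39), was counted 15, 17 and 8 times in tumors 2, 4 and 20, against 126, 130 and 318 times in colons 2, 4 and 20. The CPM were 0.733, 0.780 and 0.443 in tumor and 6.87, 7.98 and 17.5 in colon. It was 16.3-fold lower (log2 -4.02 ± 0.48 SE, edgeR adjusted p = 0.00145). Cck, cholecystokinin, a hormone mainly of the small intestine that empties the gallbladder (ENSMUSG00000032532, chromosome 9, 121318890 to 121324760, GRCm39), had 26, 18 and 2 counts in tumor and 48, 51 and 76 counts in colon. Tumors 2 and 4 were much nearer to colon than tumor 20. The difference was 4.42-fold (log2 -2.14 ± 0.66 SE, edgeR adjusted p = 0.0448), and it did not pass with the replicate block that pairs equal numbers (edgeR adjusted p = 0.0836). Without tumor replicate 2 the log2 fold change was -2.76, with the call kept, and the call was lost without tumor replicate 4 (edgeR adjusted p = 0.0807) and without colon replicate 2 (0.0687), colon replicate 4 (0.107) or colon replicate 20 (0.123).

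Tph1, tryptophan hydroxylase 1, the rate-limiting enzyme of serotonin synthesis in enterochromaffin cells (ENSMUSG00000040046, chromosome 7, 46294065 to 46321961, GRCm39), had 5.86, 2.71 and 6.31 CPM in tumor and 31.2, 26.2 and 24.6 CPM in colon. Colon libraries were close to each other and all above the tumors. The level was 5.52-fold lower (log2 -2.46 ± 0.32 SE, edgeR adjusted p = 0.00214). Mast cells also express Tph1, and 7 of 10 mast cell genes were higher in tumor and 1, Kit, lower. Of all tested genes 16.1% were higher and 16.1% lower. The 10 mast cell genes summed to 117 to 193 CPM in tumor and 85.5 to 174 CPM in colon. Kit alone had 68.5, 96.5 and 170 CPM in colons 2, 4 and 20, which was most of the colon sums. In tumors 2, 4 and 20 Kit had 24.1, 32.5 and 23.0 CPM. The part of mast cells in the Tph1 level was not tested. Neurod1, a basic helix-loop-helix factor of endocrine differentiation (ENSMUSG00000034701, chromosome 2, 79282865 to 79287095, GRCm39), had 8, 17 and 10 counts in tumor and 87, 51 and 50 counts in colon. It was 6.08-fold lower (log2 -2.61 ± 0.41 SE, edgeR adjusted p = 0.00397). In the deposited table Neurod1 overlaps Cerkl on the same strand, so its counts are uncertain, and Cerkl itself had a log2 fold change of -0.63 ± 0.26 SE (edgeR adjusted p = 0.104).

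Nts, neurotensin, a peptide of ileal N cells and of neurons that acts on motility and secretion (ENSMUSG00000019890, chromosome 10, 102317617 to 102326347, GRCm39), stood apart from the others. It had 87, 13 and 60 counts in tumors 2, 4 and 20, against 7, 14 and 7 counts in colons 2, 4 and 20. In CPM these were 4.25, 0.596 and 3.32 in tumor and 0.382, 0.860 and 0.384 in colon. Tumors 2 and 20 were above all colon libraries, while tumor 4 lay within the colon range. The log2 fold change was 2.32 ± 0.76 SE and did not pass (edgeR adjusted p = 0.0525, unadjusted p = 0.0172). Between libraries of equal number the log2 differences were 3.16, -0.46 and 2.81 for numbers 2, 4 and 20. Without tumor replicate 4 the log2 fold change was 2.81 and passed (edgeR adjusted p = 0.00773). Nts also passed with scaling to pan-epithelial genes, with no count filter and in DESeq2.

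The colon libraries did not rank the genes alike. Chga, Chgb, Pyy, Tph1 and Neurod1 were highest in colon 2, while Gcg, Insl5, Sst and Cck were highest in colon 20. The ratio of colon 20 to colon 2 was 3.59 for Gcg, 2.54 for Sst, 1.68 for Insl5 and 1.60 for Cck, against 0.57 for Chga, 0.58 for Neurod1, 0.59 for Chgb, 0.66 for Pyy and 0.79 for Tph1. Each library is a single sample, so these ratios carry no replicate error. Other genes differed between the same libraries. The summed level of 6 distal colon Hox genes was 564, 331 and 200 CPM in colons 2, 4 and 20. That of 10 goblet cell genes was 21159, 26403 and 53588 CPM. Single genes did not all follow these sums. Hoxa13 had 43.1, 48.9 and 52.7 CPM in colons 2, 4 and 20. The goblet genes Zg16, Tff3 and Sytl2 were highest in colon 2, with 1515, 1478 and 859 CPM for Zg16 and 865, 455 and 195 CPM for Tff3. The distal Hox genes summed to 318, 186 and 371 CPM in tumors 2, 4 and 20, and 6 of 6 did not pass between the tissues, while 1 was lower without tumor replicate 4. The part of position along the colon in these rankings was not tested.

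To compare levels between genes, the deposited FPKM, which are divided by exon length, were used. The 10 genes summed to 72.2, 34.0 and 54.3 FPKM in tumors 2, 4 and 20, against 402, 270 and 364 FPKM in colons 2, 4 and 20. The mean was 53.5 FPKM in tumor and 345 FPKM in colon, 6.45-fold lower in tumor. In tumor the order of mean FPKM was Pyy 26.2 ± 15.4, Chgb 9.77 ± 3.0, Chga 5.75 ± 1.36, Insl5 4.50 ± 0.645, Gcg 2.39 ± 1.09, Nts 2.27 ± 1.59, Sst 0.944 ± 0.276, Tph1 0.835 ± 0.326, Cck 0.592 ± 0.474 and Neurod1 0.219 ± 0.075 (SD, n = 3). The ranges of Insl5 and Gcg did not overlap, and the other neighbours in this order overlapped in their ranges. Within every tumor library the order from Pyy through Chgb, Chga and Insl5 to Gcg held. In colon the order was Pyy 135 ± 44.2, Insl5 62.5 ± 19.9, Chgb 59.9 ± 21.6, Gcg 33.4 ± 21.7, Chga 31.7 ± 10.6, Sst 14.2 ± 7.42, Tph1 4.25 ± 0.614, Cck 2.42 ± 0.535, Neurod1 1.25 ± 0.396 and Nts 0.416 ± 0.211 FPKM (SD, n = 3). In colon the neighbours Insl5 and Chgb, Chgb and Gcg, and Gcg and Chga overlapped in their ranges and the other neighbours did not. Chga, with at most 43.8 FPKM, lay below Insl5 and Chgb in range.

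As shares of the summed FPKM, Pyy was the largest in both tissues, with 46.2 ± 12.0% in tumor and 38.8 ± 7.03% in colon. Insl5 made up 9.44 ± 4.34% in tumor and 18.3 ± 5.19% in colon, Gcg 5.37 ± 3.76% in tumor and 9.85 ± 5.89% in colon, and Nts 3.82 ± 2.03% in tumor and 0.133 ± 0.0968% in colon. For Insl5 and Gcg the ranges of the shares overlapped between the tissues. Nts shares were 4.97, 1.48 and 5.01% in tumors 2, 4 and 20 and 0.0743, 0.244 and 0.0796% in colons 2, 4 and 20. The sum they are taken over was 6.45-fold lower in tumor, and Nts itself had 0.501 FPKM in tumor 4, within its colon range of 0.289 to 0.660 FPKM. These shares were not tested.

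**Figure D2:**
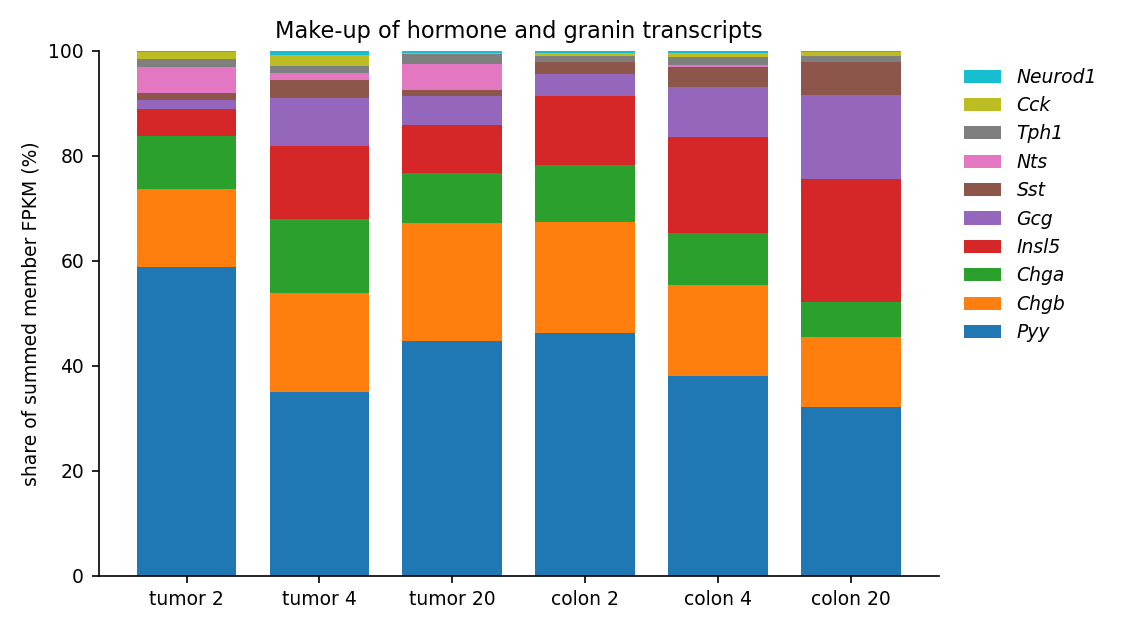
Stacked shares (%) of each gene in the summed FPKM of the 10 genes, 1 bar per library, tumor libraries left and colon libraries right. Pyy is the largest share in each of the 6 bars, and Nts is visible in the tumor bars.

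Whether the genes differed by as much as the general granin was examined by taking each gene's log2 CPM minus that of Chga in each library. Relative to Chga, Chgb, Pyy, Tph1, Cck and Neurod1 had tumor minus colon differences between -0.18 and 0.19. When single libraries were left out, these ran from -0.43 to -0.02 for Chgb, -0.32 to 0.29 for Pyy, -0.24 to 0.28 for Tph1, -0.21 to 0.93 for Cck and -0.21 to 0.51 for Neurod1. The differences were -1.29 for Insl5, -1.26 for Gcg and -1.20 for Sst, with ranges of -1.65 to -0.87, -1.92 to -0.60 and -1.70 to -0.63 when single libraries were left out, in each of these 3 genes smallest without colon replicate 20. For Insl5 the values were -2.83, -1.91 and -1.94 in tumors 2, 4 and 20, against -1.66, -1.06 and -0.10 in colons 2, 4 and 20, which do not overlap. For Gcg and Sst the groups overlapped. Between libraries of equal number the differences were -1.17, -0.85 and -1.84 for Insl5 in numbers 2, 4 and 20. In the same order they were -1.22, -0.52 and -2.05 for Gcg and -0.37, -0.57 and -2.67 for Sst. All 9 of these values were negative, and they are 3 pairs per gene that were not tested as pairs. The 3 genes were grouped by their mean differences on these same values, and all 3 share the Chga values. The signs are thus no separate support. Nts relative to Chga was 4.38 higher in tumor, from 3.97 to 5.08 when single libraries were left out. Its groups did not overlap on this scale, on which the lower Chga of the tumors also counts. By the exact two-sided permutation test over the 6 libraries p was 0.1 for Insl5 and Nts, the smallest that 3 against 3 can give, 0.2 for Sst and 0.4 for Gcg. Over the 9 differences the adjusted p was 0.45 for Insl5 and Nts, so none passed.

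**Figure D3:**
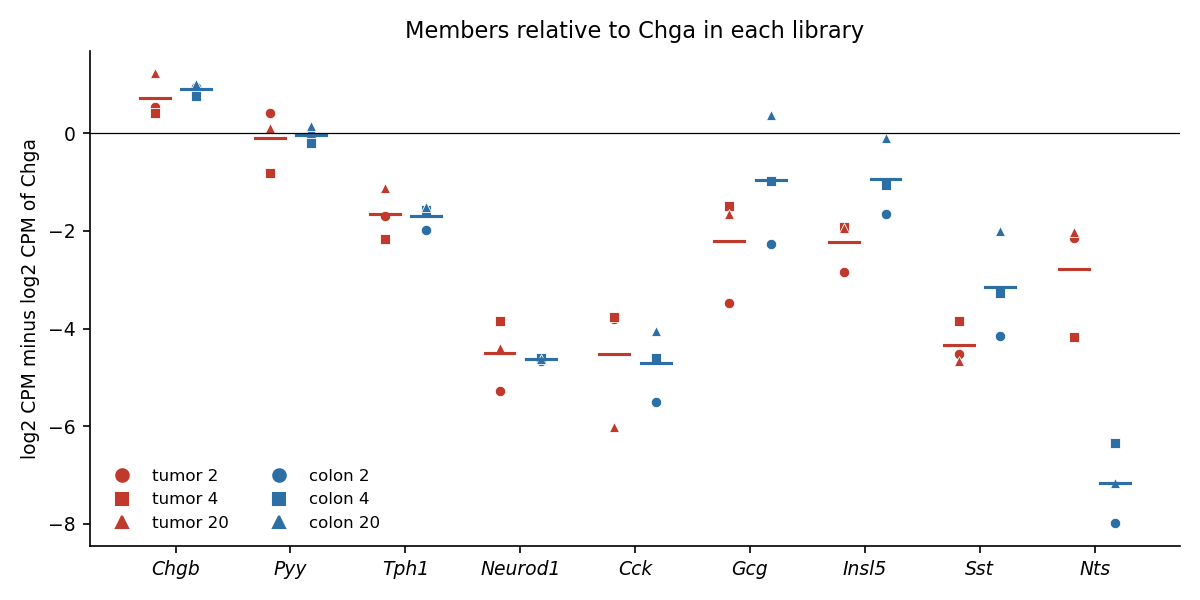
Log2 CPM of 9 genes minus log2 CPM of Chga in each library, tumor in red and colon in blue, with a horizontal line at the mean of 3 libraries. Insl5 is lower and Nts higher in tumor with no overlap, while Chgb, Pyy, Tph1, Neurod1 and Cck overlap.

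Other genes of the enteroendocrine system were described by 6 lists. Of their 71 tested genes 46 were lower and 10 higher in tumor, beside 16.1% lower and 16.1% higher of all tested genes. Without colon replicate 20 there were 34 lower and 6 higher, and without colon replicate 4 there were 40 lower and 5 higher. Calls over all genes fell as well, from 2987 lower and 2981 higher in the main fit. They were 2104 lower and 2110 higher without colon replicate 20, and 1904 lower and 1905 higher without colon replicate 4. Of 12 further hormone genes 10 had a row and 6 were tested, and 4 of these were lower, with a list median log2 fold change of -1.62. Ppy, pancreatic polypeptide, had 1.21 ± 0.260 CPM in tumor, against 8.04 ± 3.09 CPM in colon (log2 -2.72 ± 0.37 SE, edgeR adjusted p = 0.00236). Penk, proenkephalin, and Tac1, which encodes substance P of enterochromaffin cells and neurons, had log2 fold changes of -1.72 (edgeR adjusted p = 0.0206) and -1.45 (0.0387). Gal, the neuropeptide galanin, had 24, 2 and 3 counts in tumors 2, 4 and 20, against 111, 50 and 86 counts in colons 2, 4 and 20 (log2 -3.25, edgeR adjusted p = 0.022), and its log2 fold change was -5.11 without tumor replicate 2. Secretin, Sct, and ghrelin, Ghrl, did not pass. The call of Tac1 was lost with the replicate block (edgeR adjusted p = 0.0667), and leaving out single libraries left 1 to 4 of the list lower: 1 gene without colon replicate 20, and 2 genes when tumor 2, tumor 20 or colon 2 was the library left out.

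**Figure D4:**
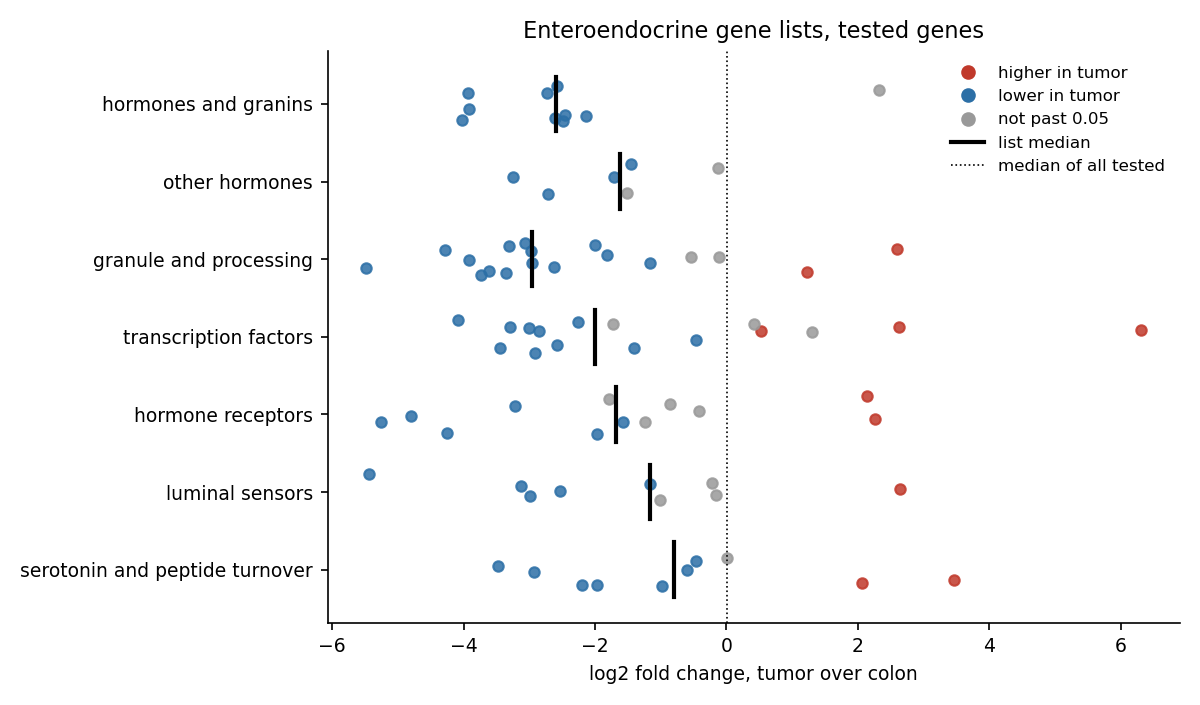
Log2 fold change (tumor over colon) of each tested gene of the 10 hormones and granins and of 6 further lists, 1 point per gene, blue for lower, red for higher and grey for not past 0.05. Black bars are list medians, which run from -2.96 to -0.80, and the dotted line is the median of all tested genes at 0.01.

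Granule and prohormone processing genes had a median log2 fold change of -2.96, with 14 of 18 lower and 2, Cplx2 and Cadps, higher. By the same test 16.1% of all tested genes were lower and 16.1% higher. The 2 became 1, Cadps, when tumor replicate 20 or any 1 of the colon libraries was left out. Scg2, secretogranin II, had 1.51 ± 0.253 CPM in tumor, against 20.3 ± 5.12 CPM in colon (log2 -3.74 ± 0.28 SE, edgeR adjusted p = 0.000307). Scg3, a granin that helps sort cargo into granules, had a log2 fold change of -3.30. Its counts were 9, 9 and 12 in tumors 2, 4 and 20, against 106, 58 and 104 in colons 2, 4 and 20. Pcsk1n, an inhibitor of prohormone convertase, had a log2 fold change of -3.35. Cpe, carboxypeptidase E, which trims prohormones, had 26.4 ± 10.1 CPM in tumor, against 162 ± 35.9 CPM in colon (log2 -2.62 ± 0.29 SE, edgeR adjusted p = 0.00118). Pam, which amidates peptides and is also made by other cells, had 201 ± 6.62 CPM in tumor, against 219 ± 10.2 CPM in colon and did not pass (edgeR adjusted p = 0.345).

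Of 16 tested transcription factors of the lineage, 10 were lower and 3 higher, with a median of -1.99. Among all tested genes 16.1% were lower and 16.1% higher. Neurog3, the factor that commits progenitors to the endocrine lineage, had 6, 8 and 12 counts in tumors 2, 4 and 20, against 59, 46 and 73 counts in colons 2, 4 and 20. It was 7.57-fold lower (log2 -2.92 ± 0.41 SE, edgeR adjusted p = 0.00279), but it overlaps Fam241b on the opposite strand. Lmx1a, a factor of enterochromaffin cells, was 7.98-fold lower (edgeR adjusted p = 0.00275). Its counts were low, with 3, 7 and 5 in tumors 2, 4 and 20, against 38, 35 and 34 in colons 2, 4 and 20. Prox1, a homeobox factor that is also a Wnt target in colon tumors, went the other way, with 536, 415 and 484 CPM in tumors 2, 4 and 20, against 7.20, 6.57 and 4.34 CPM in colons 2, 4 and 20 (log2 6.31 ± 0.24 SE, edgeR adjusted p = 4.15e-05). Sox4, a progenitor factor, had 360.5 ± 51.6 CPM in tumor, against 58.5 ± 5.02 CPM in colon (log2 2.62 ± 0.14 SE, edgeR adjusted p = 0.000131). The third factor that was higher was Rfx3, whose call was lost with the replicate block (edgeR adjusted p = 0.0753) and when any library other than tumor replicate 2 was left out. Foxa1 had a log2 fold change of 0.42 and did not pass (edgeR adjusted p = 0.0516), but it passed in 6 of the 17 alternatives. Prox1 has an antisense partner, Prox1os, and whether strand was used in counting is not given in the sources used here.

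Receptors of these hormones were mostly weakly expressed, with 12 of 23 tested, 6 lower, 2 higher and a median of -1.67. The shares over all tested genes were 16.1% lower and 16.1% higher. Glp1r and the Insl5 receptor Rxfp4 were among the 11 under the filter. Sstr1, a somatostatin receptor, had 0.532 ± 0.139 CPM in tumor, against 20.6 ± 9.29 CPM in colon (log2 -5.26 ± 0.45 SE, edgeR adjusted p = 0.000459). Htr4, a serotonin receptor, and Npy1r, which binds peptide YY, had log2 fold changes of -3.22 (edgeR adjusted p = 0.00466) and -1.96 (0.00507). Npy2r, the preferred receptor of the shortened form of peptide YY, was higher, with 52, 86 and 41 counts in tumors 2, 4 and 20, against 16, 9 and 10 counts in colons 2, 4 and 20 (log2 2.14 ± 0.39 SE, edgeR adjusted p = 0.00714). The serotonin receptor Htr7 was the other that was higher, and its call was lost without colon replicate 4 (edgeR adjusted p = 0.0619).

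Of 9 tested genes that sense luminal nutrients and chemicals, 5 were lower and 1, Trpa1, higher, with a median of -1.17. Beside this, 16.1% of all tested genes were lower and 16.1% higher. Olfr78, a receptor for short-chain fatty acids, had 18, 44 and 34 counts in tumors 2, 4 and 20, against 368, 160 and 214 counts in colons 2, 4 and 20 (log2 -3.12 ± 0.42 SE, edgeR adjusted p = 0.00236). Ffar1, a long-chain fatty acid receptor, had 2, 6 and 3 counts in tumor and 28, 29 and 21 counts in colon (log2 -2.99, edgeR adjusted p = 0.00514). Ffar2, a short-chain fatty acid receptor, had a log2 fold change of -2.53 (edgeR adjusted p = 0.0168), and its call was lost when single libraries were left out, namely tumor 2 (0.0521), tumor 20 (0.0625), colon 4 (0.0502) and colon 20 (0.0503). The cation channel gene Trpc4 had 0, 0 and 1 counts in tumor and 34, 9 and 11 counts in colon. Ffar4, another fatty acid receptor, had 26.6 ± 9.13 CPM in tumor, against 29.6 ± 14.4 CPM in colon and did not pass (edgeR adjusted p = 0.785). Leaving out single libraries left 2 to 4 of these genes lower, 3 without tumor replicate 2 or tumor replicate 20 and 2 without colon replicate 20, and 0 higher without colon replicate 4 or colon replicate 20.

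Around Tph1, genes of serotonin handling went in different directions. Ddc, the decarboxylase that completes serotonin synthesis, had 27.7, 31.0 and 49.1 CPM in tumors 2, 4 and 20, against 87.7, 69.9 and 55.9 CPM in colons 2, 4 and 20. Its log2 fold change was -0.99 ± 0.25 SE (edgeR adjusted p = 0.0244), and the call was lost with the replicate block (0.0577). Slc18a1, the vesicular transporter that loads serotonin into enterochromaffin granules, was higher, with 78.0, 38.4 and 64.1 CPM in tumor and 6.21, 5.10 and 5.11 CPM in colon. The log2 fold change was 3.46 ± 0.28 SE (edgeR adjusted p = 0.000401). It overlaps Atp6v1b2 on the opposite strand, which had 3418, 3106 and 2806 counts in tumor and 1991, 1560 and 1577 counts in colon, and without use of strand the counts of both genes would mix. Slc18a2, the related transporter of neurons and mast cells, named after its values were seen, had a log2 fold change of 0.01 (edgeR adjusted p = 0.967).

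Slc6a4, the serotonin reuptake transporter of the epithelium and neurons, had 0.489, 0.504 and 2.71 CPM in tumor and 15.8, 12.5 and 12.2 CPM in colon (log2 -3.47 ± 0.65 SE, edgeR adjusted p = 0.00791). Tumor 20 was the highest of the tumors, and without tumor replicate 20 the log2 fold change was -4.75. Maoa and Maob, which break serotonin down, had log2 fold changes of -1.97 (edgeR adjusted p = 0.00259) and -2.93 (0.00148). Over the 10 tested genes of serotonin handling and peptide turnover, 7 were lower and 2, Slc18a1 and the peptidase Mme, higher, with a median of -0.80. Over all tested genes 16.1% were lower and 16.1% higher. The 7 became 3 without tumor replicate 4 or colon replicate 2 and 4 without tumor replicate 2 or colon replicate 20. The 2 that were higher became 1 when any library other than tumor replicate 4 was left out, and 1 with the replicate block.

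**Figure D5:**
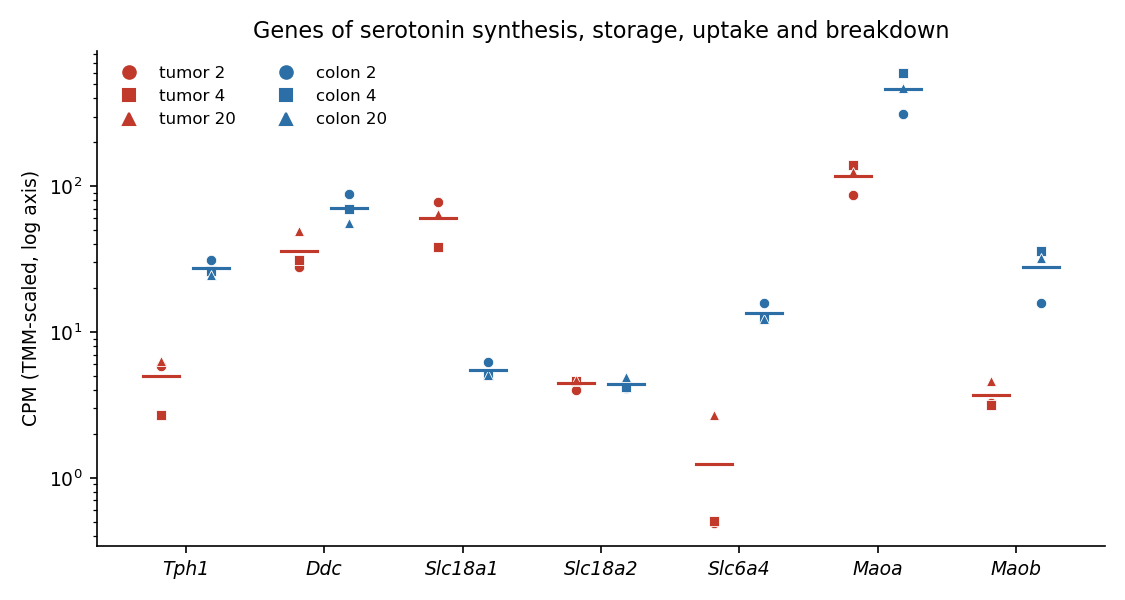
CPM (TMM-scaled, log axis) of Tph1 and 6 genes of serotonin synthesis, storage, uptake and breakdown in each library, tumor in red and colon in blue, with a horizontal line at the mean of 3 libraries. Slc18a1 is higher in tumor, Slc18a2 overlaps, and the other genes are lower in tumor.

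The genes whose pattern over the 6 libraries was most like the mean log2 CPM of the 10 genes were Slc25a42, Zbtb7b, Nat8l, Lsamp, Golga3, Spata2l, Tns2, Mlxip, Flna and Tmem159, with Pearson r from 0.996 to 0.998. Slc25a42, a mitochondrial carrier of coenzyme A, came first, with 12.3, 9.997 and 10.4 CPM in tumors 2, 4 and 20, against 27.5, 26.0 and 27.6 CPM in colons 2, 4 and 20. None of these 10 was in a list, but Pcsk1n of the granule and processing list had r of 0.9957, level with Tmem159 at this precision. Among all tested genes 678, or 3.66%, had r of at least 0.95, and the points share the split into 2 tissues. Of the members, r with the mean, which includes the member, was 0.98 for Insl5 and Chga, 0.83 for Cck and -0.66 for Nts.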

How the data were processed

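Tumor and colon RNA of AOM/DSS mice had been made into libraries with a stranded mRNA kit, per the labels. Cutadapt, HISAT and build GRCm39 are named in the submitters' processing notes. Versions, the counter and the strand setting were not given in the sources used here. As deposited by the authors, the table held raw fragment counts per gene, and the deposited FPKM are in further columns of it, that is, counts over exon length and library total. Samples were grouped by their labels. Whether each number stands for 1 animal is not stated there, and p-values thus reflect the variation among these samples alone.

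Counts were tested with edgeR 4.0.16 in R 4.3.3 (TMM scaling, filterByExpr, quasi-likelihood test, Benjamini-Hochberg adjustment at 0.05). Standard errors are approximate, from the log2 fold change over the square root of F. Differences from Chga were taken on log2 CPM (prior count 2) and tested by exact permutation. Levels between genes were taken from FPKM. Motifs were searched as exact letters on both strands of RefSeq windows of build GRCm38.p6, while gene positions are of GRCm39. The scripts were tested on simulated data. Penk, Pam, Olfr78, Ddc, Slc18a2 and Slc6a4 overlap other annotated genes in the table, so their counts are uncertain to that extent.

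The members and lists were chosen with earlier results of these data known. Named genes were the 10 members, of each enteroendocrine list the 4 with the lowest adjusted p past the threshold and the 2 with the highest mean FPKM, and the 10 with the highest r. Genes named only by symbol to complete a count were chosen after their values were seen. Alternatives were RLE, upper quartile and pan-epithelial scaling, no filter or 1 CPM in 3 libraries, DESeq2 1.42.0, limma-voom and limma 3.58.1 on log2(FPKM + 1) and log2(FPKM + 0.1), leaving out each library, leaving out 5 genes over 1% of a library, and a replicate block. The series design states that tissue was paired and the labels share numbers, so equal numbers were taken as pairs, and after centring on the group means the libraries of equal number correlated at 0.19, 0.12 and 0.02 for numbers 2, 4 and 20. Context lists of tuft cells, goblet cells and colonocytes were computed as well: of the tested genes 2 of 8, 7 of 10 and 7 of 10 were lower in tumor, and 1 tuft gene, Avil, was higher. Of all tested genes 16.1% were lower and 16.1% higher. Goblet genes lower were 3 without tumor replicate 20 and 4 without the genes over 1% of a library. Without tumor replicate 20 the calls over all genes were 2004 lower and 2026 higher. Tuft genes lower were 1 when tumor 2, tumor 20, colon 4 or colon 20 was left out and with log2(FPKM + 1), and 4 with DESeq2.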

Additional observations from a re-analysis of the deposited data

How the results depend on the processing

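Chga, Chgb, Gcg, Pyy, Insl5, Sst, Tph1 and Neurod1 kept direction and call in all 17 alternatives, and Cck lost its call in 6, with adjusted p from 0.0594 (pan-epithelial scaling) to 0.123. The count of lower members stayed between 8 and 9. The count of higher members was 1, by Nts, with pan-epithelial scaling, no filter and DESeq2, and ran from 0 to 1 when single libraries were left out. Nts was not tested with at least 1 CPM in 3 libraries. With the replicate block, members lower were 8, list genes lower 41 and list genes higher 9, and among the genes named the block ended the calls of Cck, Tac1, Ddc, Rfx3 and Mme (adjusted p = 0.097) and brought Foxa1 past the threshold (0.0348). Foxa1 also passed with pan-epithelial scaling, limma-voom and both FPKM scales and without colon replicate 2. Leaving out single libraries gave 34 to 40 lower and 5 to 10 higher list genes. Over all genes these fits gave 1904 to 2930 lower and 1905 to 2908 higher, and the replicate block 2833 lower and 2724 higher. With Spearman's rho in place of Pearson's r, 60 genes reached 0.95. Over 6 libraries without ties a rho of 0.95 takes the same order of libraries. It is thus a stricter threshold than r of 0.95, which 678 genes reached. Genes that had not passed changed sign in places. Pam had log2 0.0605 with pan-epithelial scaling and 0.00053 and 0.00057 with log2(FPKM + 1) and log2(FPKM + 0.1). Ffar4 had 0.0475, 0.0163 and 0.0192 under the same settings and -0.46 to 0.32 when single libraries were left out. Slc18a2 had -0.0113 with upper quartile scaling and -0.0315 to 0.0985 when single libraries were left out. The cause was not tested for these changes. Single libraries also ended calls: Penk without tumor replicate 2 or 20 or colon replicate 2 or 20 (adjusted p up to 0.0632), Gal without tumor replicate 20 or colon replicate 2 or 20 (up to 0.0703), Tac1 without tumor replicate 2 or 4 or colon replicate 2 or 20 (up to 0.0996), and Ddc without tumor replicate 2 or 4 or colon replicate 2 or 4 (up to 0.0658). Trpc4 did not pass on the FPKM scales. Counts under 20 in some libraries of Sst, Neurod1, Cck and Nts limit the precision of their values. The same holds for list genes with such counts, among them Lmx1a, Scg3, Neurog3 and Ffar1.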
